A study of Homo sapiens with 4 samples.

Results

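The genes described here are 6 of the actin monomer and filament cycle in LNCaP cells: the beta-thymosins TMSB4X and TMSB10, the cytoplasmic actins ACTB and ACTG1, profilin (PFN1) and cofilin (CFL1). They were chosen by their FPKM in the comparison of CRYM vector with empty vector, so their differences in that comparison are descriptions and carry no test. In each library a gene was taken from the row with its symbol, or else from the row whose position overlapped its hg19 span by at least 0.4 of the union of both. This found 3 of the 6 genes in each of the 4 libraries, TMSB4X, TMSB10 and PFN1, out of 89428 to 103044 loci listed per library. The lowest overlap among those found was 0.952, at TMSB10, and the highest among those not found was 0.202, at ACTG1. For ACTB, ACTG1 and CFL1 the values below are those of the wider locus that contained 100% of the span, and they were taken after the values were seen.

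The study compared LNCaP, an established human prostate cancer line from a lymph node metastasis, 48 h after transient transfection with a CRYM expression vector or with the matching empty vector, at passage 22 and in medium with 10% serum. The CRYM product, mu-crystallin, is a thyroid hormone binder of the cytosol. Each group had 2 libraries of polyadenylated RNA, and all cells of both groups received a plasmid and a lipid reagent. The labels call the libraries biological replicates and name no separate cultures, so the spread behind every p-value may be technical. In bulk RNA a change in a few transfected cells cannot be told apart from a smaller change in all cells, and reads of the CRYM vector cannot be told apart from those of the endogenous gene.

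Actin cycles between monomers and filaments. Beta-thymosins bind monomers and keep them out of filaments, profilin recharges monomers with ATP and hands them to growing ends, and cofilin severs and depolymerizes old filaments. ACTB and ACTG1 encode the beta and gamma actins of the cytoplasm, which differ in only a few residues near the amino terminus.

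TMSB4X and TMSB10 differed between the groups by far more than between libraries of a group, so their coding sequences are shown, read from GENCODE 29 transcripts (GRCh38). TMSB4X lies on chromosome X (coding region 12976262 to 12976811, plus strand), TMSB10 on chromosome 2 (84906018 to 84906423, plus strand) and the third family member described here, TMSB15A, on chromosome X (102514087 to 102515163, minus strand). Capitals in the last 2 sequences mark bases that differ from TMSB4X in a global alignment.
TMSB4X: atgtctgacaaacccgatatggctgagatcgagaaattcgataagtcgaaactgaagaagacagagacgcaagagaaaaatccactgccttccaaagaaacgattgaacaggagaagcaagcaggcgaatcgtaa
TMSB10: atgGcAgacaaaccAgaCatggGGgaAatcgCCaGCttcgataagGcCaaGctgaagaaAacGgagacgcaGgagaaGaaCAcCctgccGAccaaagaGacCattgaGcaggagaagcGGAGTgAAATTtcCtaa
TMSB15A: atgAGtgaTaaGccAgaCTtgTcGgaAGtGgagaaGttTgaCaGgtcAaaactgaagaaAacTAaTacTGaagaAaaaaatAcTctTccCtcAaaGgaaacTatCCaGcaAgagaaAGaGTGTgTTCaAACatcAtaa
TMSB4X and TMSB10 were identical at 98 of 135 bases (72.6%), TMSB15A at 65.2% to TMSB4X over 138 aligned bases. Across the principal transcripts, including what lies outside the coding part, the longest run that TMSB4X and TMSB10 shared was 10 bases, against reads of 50 bases. No read that matches without error could therefore belong to both. Of the 50-base words of the TMSB10 transcripts, 2.24% also occurred in a transcript of another gene, always the processed pseudogene TMSB10P1. The share was 10.2% for TMSB4X, with BCAS4 and the TMSB4X pseudogenes, and 8.67% for PFN1, with PFN1P1 and the overlapping gene ENO3. For ACTB it was 4.84%, for ACTG1 2.30%, and for CFL1 15.2%, mostly with its neighbours MUS81 and SNX32.

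The promoters of the 3 genes found and of ACTG1 follow, from 250 bases before to 50 bases after the annotated start (RefSeq, GRCh38.p14), because both beta-thymosins were higher with the CRYM vector by a similar factor and PFN1 and ACTG1 were not. Capitals mark 3 motifs found on either strand, overlapping copies included: the GC box, spelled GGGCGG, the CArG box of serum response factor, and the CCAAT box. The regions are chrX:12974860-12975159 (plus strand), chr2:84905406-84905705 (plus), chr17:4948481-4948780 (minus) and chr17:81512750-81513049 (minus).
TMSB4X: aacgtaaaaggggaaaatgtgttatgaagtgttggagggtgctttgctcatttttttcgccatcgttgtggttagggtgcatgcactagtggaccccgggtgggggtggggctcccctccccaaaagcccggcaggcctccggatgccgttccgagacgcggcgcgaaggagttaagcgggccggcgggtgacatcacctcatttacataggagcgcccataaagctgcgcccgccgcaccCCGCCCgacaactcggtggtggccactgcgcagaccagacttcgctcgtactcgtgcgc
TMSB10: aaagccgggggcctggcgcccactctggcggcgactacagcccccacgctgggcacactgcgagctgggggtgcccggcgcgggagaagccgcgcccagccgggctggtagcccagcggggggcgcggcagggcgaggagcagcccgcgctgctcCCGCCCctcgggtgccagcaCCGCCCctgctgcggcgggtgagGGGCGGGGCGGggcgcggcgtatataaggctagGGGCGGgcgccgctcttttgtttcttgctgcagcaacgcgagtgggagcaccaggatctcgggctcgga
PFN1: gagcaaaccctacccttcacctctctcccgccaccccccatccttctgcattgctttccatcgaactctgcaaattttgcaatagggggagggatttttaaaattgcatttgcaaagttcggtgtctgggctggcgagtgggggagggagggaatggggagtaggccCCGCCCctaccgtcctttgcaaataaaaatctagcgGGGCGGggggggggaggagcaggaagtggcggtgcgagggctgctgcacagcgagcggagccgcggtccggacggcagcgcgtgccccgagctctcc
ACTG1: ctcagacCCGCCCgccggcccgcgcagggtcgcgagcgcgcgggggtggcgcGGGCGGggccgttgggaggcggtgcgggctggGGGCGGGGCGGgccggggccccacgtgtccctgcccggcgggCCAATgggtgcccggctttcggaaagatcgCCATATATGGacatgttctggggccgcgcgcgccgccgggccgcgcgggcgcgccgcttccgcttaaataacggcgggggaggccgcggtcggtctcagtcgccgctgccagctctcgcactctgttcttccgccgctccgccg
TMSB10 held 5 GC boxes, TMSB4X 1, PFN1 2 and ACTG1 4, and 44.95% of 35116 promoters of the same length held at least 1. ACTG1 held the single CArG box, a motif present in 1.29% of those promoters and known as the binding site of serum response factor in actin genes. TATAAA, which 11.5% of promoters hold, and the thyroid hormone receptor half-site AGGTCA, which 13.8% hold, were not in any of the 5 promoters listed among the 6 genes, CFL1 included. Only these exact letters were searched. The TMSB10 promoter does hold the TATA-like stretch tatataag shortly before its last GC box, so it is not described here as lacking a TATA box. ACTB was not in the promoter table.

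Both beta-thymosins were about 2 times as high with the CRYM vector, and the libraries of a group lay close together. TMSB4X (hg19 chromosome X, 12993227 to 12995346) had an FPKM, fragments per kilobase scaled to the mapped fragments of the library, of 77.7 and 73.5 in CRYM vector cells, against 37.3 and 36.9 in empty vector cells. The groups did not overlap, nor did the deposited intervals of any CRYM vector library (lowest bound 69.1) and any empty vector library (highest bound 40.2). The means were 75.6 ± 2.96 and 37.1 ± 0.278 FPKM (SD, n = 2 each), a ratio of 2.04 and a difference on the log2(FPKM + 1) scale of 1.01 (SE 0.039). TMSB10 (chromosome 2, 85132749 to 85133795) had 434.2 and 451.7 FPKM in CRYM vector cells, against 244.1 and 232.2 FPKM in empty vector cells. Its groups did not overlap either, and CRYM vector library 2 lists this position without a symbol. Its means were 442.9 ± 12.4 and 238.2 ± 8.37 FPKM (SD, n = 2 each), a ratio of 1.86 and a log2 difference of 0.89 (SE 0.041). As a description, 93.3% of the 10091 loci tested had a smaller absolute log2 difference than TMSB4X and 91.9% a smaller one than TMSB10, and nothing is read from these shares, since the same contrast chose the genes. After rescaling to one total FPKM per library, which shifted the median tested locus by -0.52, the log2 difference was 0.41 for TMSB4X and 0.29 for TMSB10, or 0.93 and 0.81 relative to that shift.

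**Figure D1:**
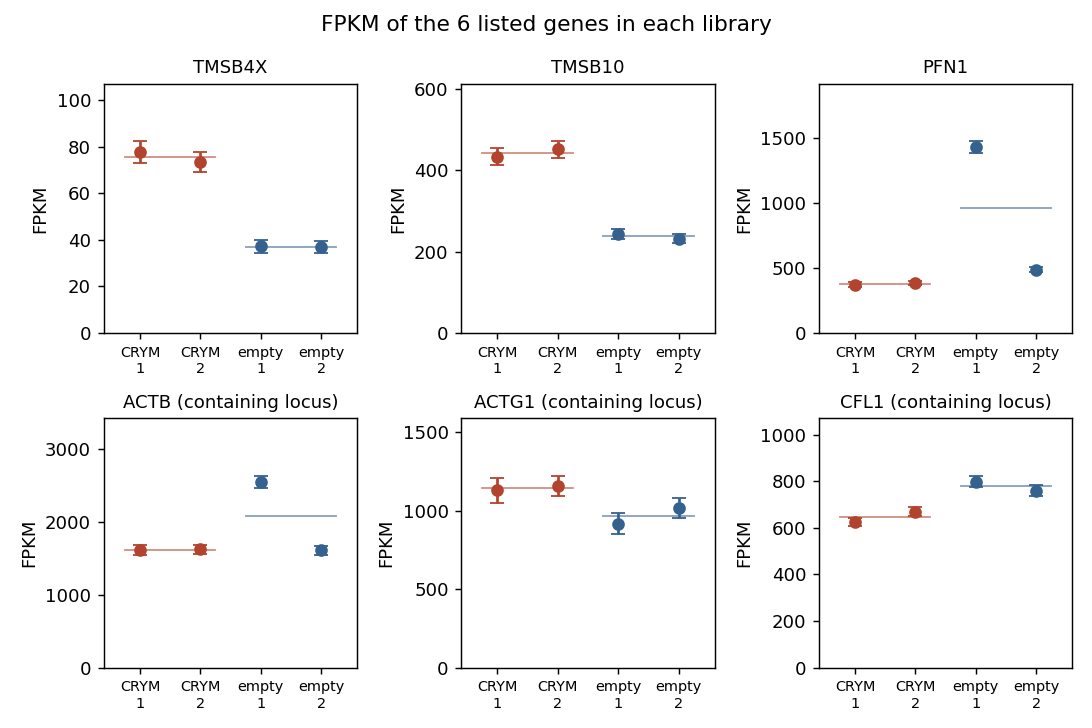
FPKM of the 6 listed genes in the 2 CRYM vector (red) and 2 empty vector (blue) libraries, with the deposited interval as error bars and the group mean as a line; each axis starts at 0. TMSB4X sits at 77.7 and 73.5 in CRYM vector libraries against 37.3 and 36.9, while PFN1 and the ACTB locus have 1 empty vector library far above the other 3 values.

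PFN1 (chromosome 17, 4848947 to 4852356) was lower with the CRYM vector in both libraries, but by an amount that depended on which empty vector library it was set against. It had 372.6 and 385.3 FPKM in CRYM vector cells, against 1430 and 487.6 FPKM in empty vector cells. Neither the groups nor their deposited intervals overlapped, yet empty vector library 1 was 2.93 times empty vector library 2. The means were 378.9 ± 8.95 FPKM in CRYM vector cells and 958.7 ± 666.3 FPKM in empty vector cells (SD, n = 2 each), and that last SD was larger than the difference between the means. On the log2 scale the difference was -1.14 (SE 0.62). Without empty vector library 1 the log2 difference was -0.36 and empty vector cells were 1.29 times CRYM vector cells; without empty vector library 2 it was -1.91 and they were 3.77 times as high. After rescaling to one total it was -1.74, or -1.23 relative to the median locus. Loci without a symbol, listed at 0 in all 4 libraries, overlap the PFN1 locus at one end, cover the TMSB10 locus, and lie over the CFL1 span (2 of them).

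The actins and cofilin were given by wider loci, and their differences were smaller. The locus that contains ACTB (chromosome 7, 5566778 to 5603415) had 1615 and 1620 FPKM in CRYM vector cells, against 2543 and 1607 FPKM in empty vector cells. Its groups overlapped, and the 2 CRYM vector values matched empty vector library 2 to within 1.01 times. Here too empty vector library 1 stood apart, at 1.58 times empty vector library 2. The log2 difference was -0.32 (SE 0.27), and without empty vector library 1 it was 0.0091. The locus that contains ACTG1 (chromosome 17, 79476997 to 79490873 in empty vector library 1, with starts that differ between libraries) had 1128 and 1156 FPKM in CRYM vector cells, against 917.8 and 1019 FPKM in empty vector cells. The groups did not overlap, with means of 1142 ± 19.4 and 968.3 ± 71.5 FPKM (SD, n = 2 each) and a ratio of 1.18, but the deposited intervals of the groups did. Its log2 difference was 0.24, with an SE of 0.084 when loci were joined by overlap, since it was not joined by identical position. After the same rescaling the log2 difference was -0.37, which is 0.15 relative to the median locus.

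The locus that contains CFL1 (chromosome 11, 65590493 to 65629497) had 624.9 and 669.5 FPKM in CRYM vector cells, against 798.1 and 759.2 FPKM in empty vector cells. Neither the groups nor their deposited intervals overlapped, with means of 647.2 ± 31.5 and 778.7 ± 27.5 FPKM (SD, n = 2 each) and a log2 difference of -0.27 (SE 0.053). The widths of these loci equal those of the GENCODE genes, 36638 bases for ACTB and 39005 bases for CFL1 in all 4 libraries and 13877 bases for ACTG1 in 1, where the other 3 were up to 13965 bases wide. The CFL1 locus reaches over neighbouring genes, and the sources used here do not say how the assembly divided reads within it.

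Of the 6 genes, 5 had groups that did not overlap, 3 with the CRYM vector higher and 2 with it lower. Over all tested loci 72.2% did not overlap, 37.0% with the CRYM vector higher and 35.3% with it lower. Since the same contrast chose the genes, nothing is read from that count. The median log2 difference over the 3 genes found was 0.89, which is the value of TMSB10 itself. It was 0.01 over all tested loci and -0.014 over all 6 listed genes.

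**Figure D2:**
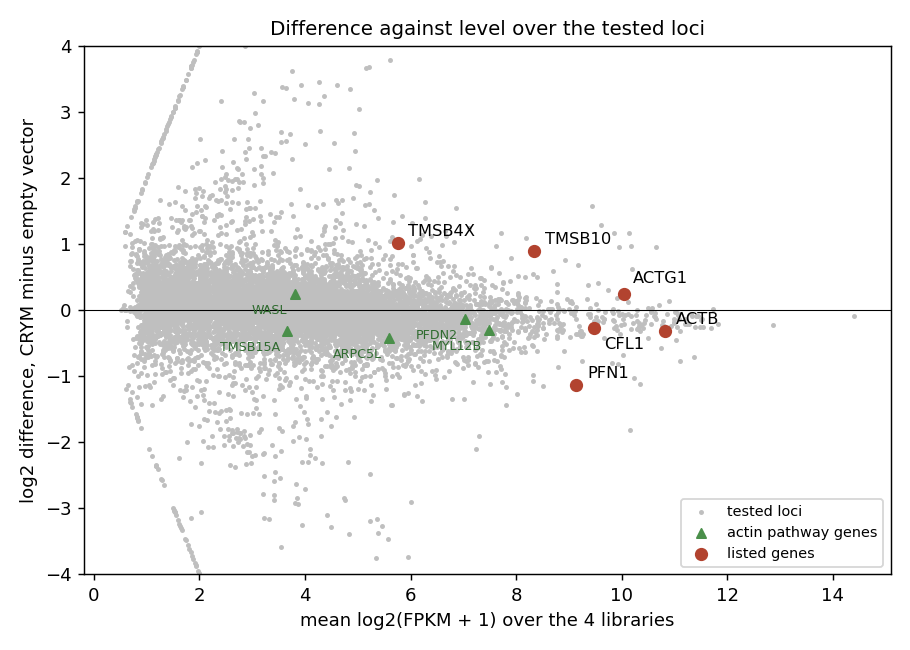
Log2 difference of CRYM vector minus empty vector against mean log2(FPKM + 1), for the tested loci (grey, within 4 log2 units), the 6 listed genes (red circles; wider loci for ACTB, ACTG1 and CFL1) and the 5 tested actin pathway genes (green triangles). TMSB4X and TMSB10 lie at 1.01 and 0.89, ACTG1 at 0.24, CFL1 at -0.27, ACTB at -0.32 and PFN1 at -1.14.

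FPKM sets levels per length and so allows genes to be ordered. In both CRYM vector libraries the order, from high to low, was ACTB, ACTG1, CFL1, TMSB10, PFN1 and TMSB4X, and the deposited intervals of neighbours in it did not overlap. In empty vector library 2 PFN1 stood above TMSB10, and in empty vector library 1 it stood second, after ACTB. Over both empty vector libraries the spread of PFN1 covered the levels of ACTG1 and CFL1. Set among the tested loci of at least 300 bp, 9205 in all, the ACTB locus ranked 37th and 37th in CRYM vector libraries, against 18th and 43rd in empty vector libraries. The ACTG1 locus was not itself among the tested loci, because its position differs between libraries. Its FPKM set against them would rank 62nd and 60th in CRYM vector libraries and 89th and 79th in empty vector libraries. PFN1 ranked 163rd and 158th in CRYM vector libraries, against 54th and 141st in empty vector libraries, and CFL1 109th and 103rd against 101st and 101st. TMSB10 ranked 141st and 137th with the CRYM vector, against 271st and 283rd with the empty vector. TMSB4X was the lowest of the 6 in every library, at 890th and 962nd with the CRYM vector, against 2002nd and 2019th with the empty vector.

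Ratios between genes of the same library do not depend on how libraries are scaled to each other. TMSB10 over TMSB4X was 5.59 and 6.14 in CRYM vector libraries, against 6.55 and 6.30 in empty vector libraries. The ratio thus differed little, 0.913 times in CRYM vector over empty vector, and within the deposited bounds it could lie between 0.724 and 1.15. The summed FPKM of both beta-thymosins over that of both actin loci was 0.187 and 0.189 in CRYM vector libraries, against 0.0813 and 0.102 in empty vector libraries. This ratio of sums was 2.05 times as high with the CRYM vector, 1.68 to 2.49 times within the deposited bounds, and 1.83 times without empty vector library 1. ACTG1 over ACTB was 0.698 and 0.713 in CRYM vector libraries, against 0.361 and 0.634 in empty vector libraries. CFL1 over PFN1 was 1.68 and 1.74 in CRYM vector libraries, against 0.558 and 1.56 in empty vector libraries. In the last 2 ratios empty vector library 1 was the one apart, and without it they were 1.11 and 1.10 times as high with the CRYM vector.

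**Figure D3:**
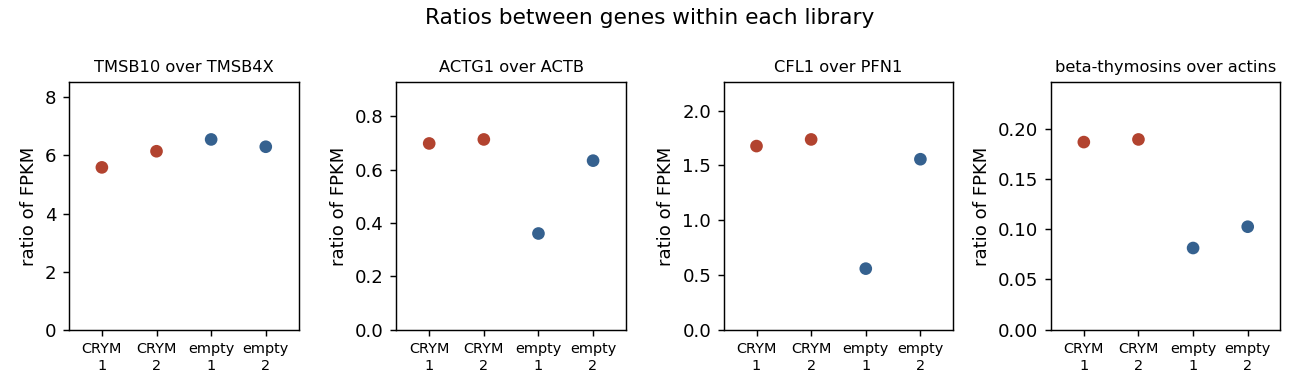
Ratio of FPKM between listed genes in each library (CRYM vector red, empty vector blue; each axis starts at 0), with the wider loci standing for ACTB, ACTG1 and CFL1. The beta-thymosins over the actins are at 0.187 and 0.189 in CRYM vector libraries against 0.0813 and 0.102, and ACTG1 over ACTB and CFL1 over PFN1 have empty vector library 1 far below the other 3.

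How unusual empty vector library 1 was at PFN1 and ACTB was looked up among abundant loci, a comparison chosen after the values were seen. Of 724 tested loci of at least 300 bp with an FPKM of at least 100 in both empty vector libraries, 717 differed between these libraries by at most 1.5 times. PFN1 had the second and ACTB the third highest ratio of library 1 over library 2, and 2 of the loci, PFN1 among them, exceeded 2 times. TMSB4X and TMSB10 differed between the empty vector libraries by 1.01 and 1.05 times, and CFL1 by 1.05 times. The CRYM vector libraries differed from each other by 0.933 to 1.06 times at all 6 genes.

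**Figure D4:**
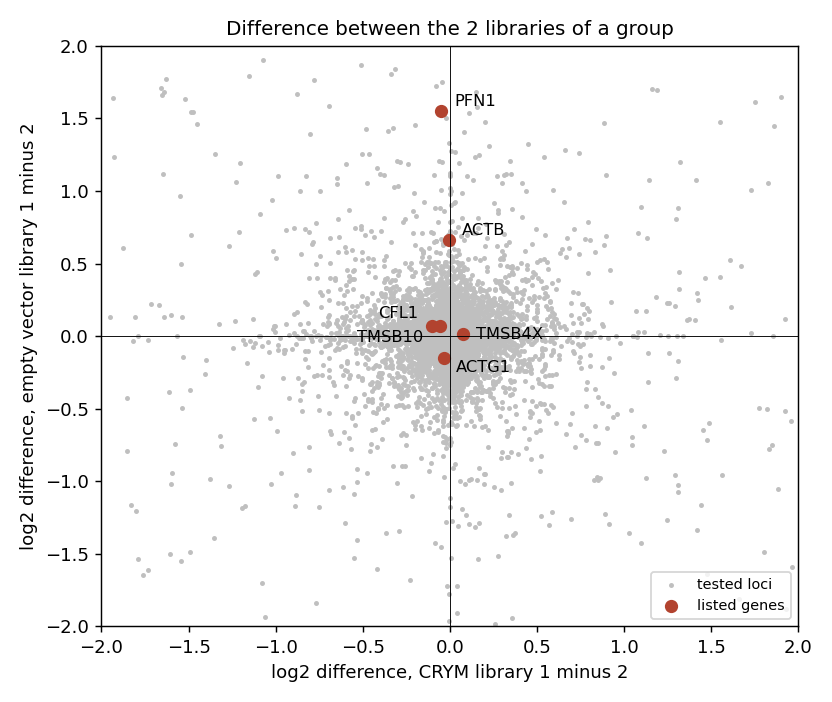
Log2 difference between the 2 libraries of each group, empty vector on the vertical axis and CRYM vector on the horizontal one, for tested loci (grey, within 2 log2 units) and the 6 listed genes (red). PFN1 lies at 1.55 and ACTB at 0.66 on the empty vector axis, while all 6 genes lie within 0.1 of 0 on the CRYM vector axis.

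If the deposited interval runs 2 SD of counting error either way, it implies a number of fragments, which was set to equal depth with the relative depth of each library. For TMSB4X this gave 1287 and 1020 fragments in CRYM vector libraries, against 659 and 653.2 in empty vector libraries, a ratio of means of 1.76. For TMSB10 it gave 2210 and 1829 in CRYM vector libraries, against 1657 and 1491 in empty vector libraries, a ratio of 1.28. Both were higher with the CRYM vector in every pairing of libraries, but by less than in FPKM. For PFN1 it gave 2577 and 2066 in CRYM vector libraries, against 4029 and 1958 in empty vector libraries, so that the groups overlapped. For CFL1 it gave 5950 and 3918 in CRYM vector libraries, against 4239 and 3686 in empty vector libraries. These groups overlapped too, and CRYM vector library 1 was the one apart, so that the ratio of 1.25, beside 0.831 in FPKM, rests on that library. For ACTB, whose groups also overlapped, the ratio was 0.944, beside 0.779 in FPKM, and for ACTG1 it was 1.35, beside 1.18. In CRYM vector library 1 the ACTG1 locus, at 1128 FPKM, gave 987.6 implied fragments. That is fewer than the 1287 of TMSB4X, at 77.7 FPKM. The implied fragments thus do not follow the levels across genes. They are not read as counts or as a second measure of the differences. Why the implied fragments and the FPKM differ was not tested.

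**Figure D5:**
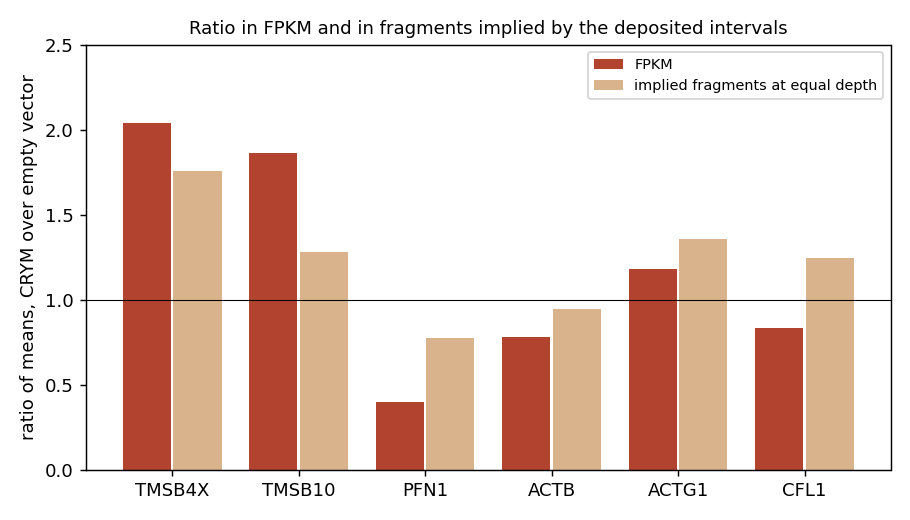
Ratio of means of CRYM vector over empty vector in FPKM (red bars) and in fragments implied by the deposited intervals at equal depth (tan bars) for the 6 listed genes; the line marks 1 and n = 2 libraries per group. TMSB4X is at 2.04 and 1.76 and TMSB10 at 1.86 and 1.28, and CFL1 is at 0.831 and 1.25, and the second of these rests on CRYM vector library 1, since the implied fragments of its groups overlap. The implied fragments rest on an assumption about the interval and are not counts.

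Genes that act with these 6 were tested in limma with Benjamini-Hochberg adjustment over all 10091 loci, of which 15.7% were called higher, 17.7% lower and 33.3% either way at an adjusted p under 0.05. The 8 lists held 148 symbols, some of them older and newer symbols of the same gene. Of these, 10 were listed under their symbol in the joined libraries, and 5 of the 10 were abundant enough to test. Only 2498 of the 10091 tested loci carried a symbol, so the levels of the other listed genes are not known here. Of the 5 tested genes, 1 rose, 3 fell and 1 did not pass. Their median log2 difference was -0.30, beside 0.01 over all tested loci. All 4 calls were lost when any 1 library was left out, in turn CRYM vector 1, CRYM vector 2, empty vector 1 and empty vector 2, and with the replicate number as a block. After rescaling to one total FPKM per library, the 3 that fell stood at -1.02 (ARPC5L), -0.88 (TMSB15A) and -0.90 (MYL12B), or -0.50, -0.36 and -0.38 relative to the median locus.

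TMSB15A (chromosome X, 101768604 to 101771712), a beta-thymosin described from motile rat prostate carcinoma cells, fell while its relatives TMSB4X and TMSB10 were higher. It had 10.5 and 10.3 FPKM in CRYM vector cells, against 13.1 and 13.3 FPKM in empty vector cells. That is a ratio of 0.784 and a log2 difference of -0.32 (SE 0.033, limma adjusted p = 0.0163, 0.0883 to 0.0925 without any 1 library). Of its 50-base words 7.70% also occur in its relative TMSB15B, so how reads of these words were divided between both loci is uncertain.

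Of the Arp2/3 complex, which starts branched filaments, and its activators, 2 of 25 genes were tested and moved in opposite directions. ARPC5L, a subunit of the complex, fell to 39.9 and 41.1 FPKM in CRYM vector cells, against 53.5 and 55.8 FPKM in empty vector cells (log2 difference -0.42, SE 0.036, limma adjusted p = 0.0126). WASL, the N-WASP protein that activates the complex, rose to 14.4 and 14.0 FPKM in CRYM vector cells, against 11.6 and 12.1 FPKM in empty vector cells (log2 difference 0.24, SE 0.042, limma adjusted p = 0.0347). The WASL call was lost without the filter on low FPKM (limma adjusted p = 0.0798) and with loci joined by overlap (0.0608). WASL was called lower after rescaling to one total FPKM per library (log2 difference -0.32), but stood at 0.20 relative to the median locus.

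Among 31 genes for crosslinkers, membrane linkers and myosin, MYL12B, a regulatory light chain of nonmuscle myosin, was the 1 tested. It fell to 162.6 and 159.3 FPKM in CRYM vector cells, against 199.8 and 196.3 FPKM in empty vector cells (log2 difference -0.30, SE 0.024, limma adjusted p = 0.0120). With quantile normalization its log2 difference was -0.13 (limma adjusted p = 0.0478). Of its 50-base words 5.86% also occur in other genes, most often in the paralog MYL12A, so reads there could be divided either way. PFDN2, a subunit of the prefoldin that passes new actin to its folding chaperonin, had 138.4 and 112.1 FPKM in CRYM vector cells, against 146.8 and 127.8 FPKM in empty vector cells (limma adjusted p = 0.531), and its groups overlapped. The other 5 genes with a symbol were below the level for testing: the muscle actin ACTA1, MYL9, PFN3, TMOD1 and CTGF, a target of serum response factor, which had 0.223 and 0.142 FPKM in CRYM vector cells, against 0.345 and 0.423 FPKM in empty vector cells. No gene of the formin list had a symbol in the joined libraries.

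Pseudogenes of the 6 genes were listed at low levels. Of 35 with a symbol, 15 were listed at 0 in all 4 libraries and the highest value was 7.46 FPKM. TMSB10P1 (chromosome 2, 236791006 to 236791137), a copy of TMSB10, was listed at 7.19 and 7.46 FPKM in CRYM vector cells and at 0 in both empty vector libraries. Under the assumption on intervals given above, 3 and 4 fragments are implied for it in CRYM vector libraries. It reached the level for testing only through that group, so no test of it is given. In all, 10 of the 50-base words of TMSB10 occur in it. PFN1P5 had 2.14 and 1.74 FPKM in CRYM vector cells, against 1.40 and 1.20 FPKM in empty vector cells, and did not pass (limma adjusted p = 0.106). TMSB4XP1, below the level for testing, was listed at 3.20 FPKM in empty vector library 1 and at 0 in the other 3 libraries. Under the same assumption on intervals, that 3.20 FPKM implies 1 fragment.

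The named protein-coding locus with the profile most like each gene was taken by the Euclidean distance of centred log2(FPKM + 1) over the 4 libraries, among 337 loci with a mean of at least 10 FPKM. For TMSB4X it was HIST1H1C, a linker histone, at a distance of 0.145, and for TMSB10 it was RAMP1, a subunit of the calcitonin gene-related peptide receptor, at 0.0819. RAMP1 had 86.0 and 87.0 FPKM in CRYM vector cells, against 50.6 and 46.2 FPKM in empty vector cells. The closest profile was GNG12 for ACTG1 (0.0773), ZNHIT2 for CFL1 (0.00655) and NDUFAF2 for ACTB (0.329). PFN1 had no near neighbour among these loci, the closest being E2F1 at 1.05.

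As a check of the labels, the CRYM locus (chromosome 16, 21250195 to 21314404), identified by its neighbours, had 65.3 and 72.5 FPKM in CRYM vector cells, against 1.17 and 0.977 FPKM in empty vector cells. Of 9 luminal prostate markers, HOXB13 and SPDEF had a symbol in the joined libraries, and their summed level was 157.1 and 162.2 FPKM in CRYM vector cells, against 215.3 and 212.2 FPKM in empty vector cells. SPDEF had a mean of 47.4 FPKM with the CRYM vector against 85.7 with the empty vector, a ratio of 0.553. HOXB13 had 112.2 against 128.1 FPKM, a ratio of 0.876. Both were called lower in limma, as were 17.7% of all tested loci. Of the other markers, 1 of 12 for fibroblasts and smooth muscle had a symbol (DES, at most 0.0688 FPKM), 1 of 7 for immune cells (HLA-DRA, 1.56 to 2.40 FPKM), 1 of 4 for endothelium (CLDN5, 0.136 to 0.275 FPKM) and 0 of 4 for basal cells. The part of any of these in the results above was not tested. The depth relative to empty vector library 1 was 0.842 and 1.07 in CRYM vector libraries and 1.15 in empty vector library 2, and absolute depths are unknown.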

How the data were processed

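For each library the authors deposited a table of loci with their FPKM, its interval and a status flag, per the file headers. The submitters' processing notes name Cufflinks 2.2.1, Cuffdiff, TopHat2 2.1.1 and Bowtie2 2.2.9, and the builds GRCh37 and hg19, with no roles. The libraries were stranded; the sources used here do not say if strand was used in quantification. The genes and lists were chosen with earlier results of these data known. Named genes are the 6 listed genes, all tested genes of the pathway lists, tested pseudogenes of the 6 genes and, for each of the 6, the 1 most similar profile. Some genes below the level for testing, TMSB4XP1 among them, are named as well. Loci were joined by identical position. The test covered 10091 loci, those whose status was OK in all 4 libraries and whose FPKM reached 1 in 2 or more. It used log2(FPKM + 1) in limma 3.58.1 under R 4.3.3, with trend, 2 groups and Benjamini-Hochberg adjustment; this scale understates changes of low loci. The fit was also run on values simulated from the mean and residual spread of each locus. Such a run cannot show whether the replicates are technical, and nothing is read from it here. Alternatives covered the pseudocount, filter, scaling, variance model, join, replicate block and each library left out. Relative depth came from loci of 60 to 62 bp, where 100% of non-zero values came out whole, within 0.02, as multiples of 1 unit. The unit was chosen so that nearly all values came out whole, so this share is not a separate check of the depth. Intervals are given per library and do not cover the spread between libraries. The sources used here do not say which errors they include. Python 3.11.15 with pandas 2.3.3 was used for joins and sequences. Marker and pathway genes without a symbol in the joined tables were not analysed here.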

Additional observations from a re-analysis of the deposited data

How the results depend on the processing

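The log2 differences of TMSB4X, TMSB10 and PFN1 kept their sign under the 8 alternatives that could move them (pseudocount, 3 scalings and each library left out); the filter, variance model, block and join leave these values as they are by construction. Without any 1 library, in turn CRYM vector 1, CRYM vector 2, empty vector 1 and empty vector 2, the log2 difference was 0.97 to 1.05 for TMSB4X, 0.86 to 0.93 for TMSB10 and -1.91 to -0.36 for PFN1. The median of these 3 genes was the value of TMSB10 in every setting, so it adds nothing to that gene. The median was 0.89 with all libraries, 0.29 with each library rescaled to the same total, 1.02 with quantile normalization and -0.014 over all 6 listed genes, an alternative added after the data were examined. Rescaling to the same total shifted the median tested locus by -0.52, against which TMSB4X stood at 0.93, TMSB10 at 0.81, PFN1 at -1.23 and ACTG1 at 0.15 (-0.37 without that reference, its one change of sign). The ACTB locus changed sign without empty vector library 1 (0.0091) and was -0.65 without empty vector library 2. Over all loci 1582 were called higher and 1783 lower. The counts were 788 and 1083 without the filter, 297 and 6257 with the same total (4.53% of the calls higher, against 47.0%), and 0 and 0 with any 1 library left out (3627 to 3815 at an unadjusted p under 0.05 in limma). The replicate block also gave 0 and 0 (3820 at an unadjusted p under 0.05). The correlation of deviations between libraries that share a number was 0.0361, and the labels do not say that numbers pair libraries. With fewer residual degrees of freedom these fits have less power by construction, and with a library left out the lone one takes its spread from the other group. Of the 5 tested pathway genes 1 was called higher and 3 lower. This became 0 and 5 with the same total, 0 higher without the filter and with loci joined by overlap, and 0 and 0 with the replicate block or any 1 library left out. Within the deposited bounds, TMSB10 over TMSB4X was 0.724 to 1.15 times as high in CRYM vector as in empty vector libraries and the beta-thymosins over the actins 1.68 to 2.49 times. Without any 1 library these were 0.870 to 0.956 and 1.83 to 2.31, ACTG1 over ACTB 1.11 to 1.96 and CFL1 over PFN1 1.10 to 3.06. Taking rows by an overlap of at least 0.6 alone left the median at 0.89 by construction, since the lowest overlap among the genes found was 0.952. For loci with few fragments, such as TMSB10P1, depth limits the precision.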
